A study of Mus musculus with 22 samples.

Results

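The messenger RNAs that unstressed mouse liver carried on heavy polysomes were compared with its total messenger RNAs, locus by locus, at 0 h. A member was any locus with status OK in the authors' group means of both fractions and a mean of the 2 group means of at least 50 scaled counts. By this rule 9340 of 39897 loci (23.4%) were members, and they held 97.4% of the scaled counts of total RNA and 94.7% of those of heavy polysomal RNA. A scaled count is the number of fragments counted at a locus divided by a library size factor, and the ratio of each member was log2(heavy polysomal mean + 1) minus log2(total mean + 1).

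All mice were 5-week-old C57BL/6 males from The Jackson Laboratory, and no genetic change was named. The 0 h mice were the controls culled at 9 am, whereas the 2 h and 4 h mice, used here only for comparison, were culled 2 h and 4 h after an intraperitoneal injection of 0.1 mg/kg tunicamycin (Tm), a blocker of N-linked glycosylation. Total RNA came from a piece of liver, and heavy polysomal RNA from the pooled sucrose gradient fractions with more than 3 ribosomes on each mRNA, made from a lysate cleared of debris. At 0 h the labels listed 3 total and 2 heavy polysomal libraries, but the table held 3 heavy polysomal read groups, so only the authors' heavy polysomal mean was used and the 0 h ratio has no error of its own on that side.

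An mRNA in translation carries several ribosomes at once, and the number of ribosomes on it sets how far it sediments in a sucrose gradient. A long coding sequence has room for more ribosomes than a short one, and an mRNA that initiates rarely stays among free ribonucleoproteins and monosomes. In liver, much of the mRNA encodes secreted plasma proteins that are made on ribosomes at the endoplasmic reticulum.

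The 3 total 0 h libraries held 11282111, 17283500 and 10556153 counted fragments. The table identified loci by Cufflinks identifiers without gene names or coordinates, so the liver label could not be checked against marker genes and no locus is given a function below. In tissue RNA, fewer cells of a type and less RNA per cell cannot be told apart. The 2 fractions also differed in the amount of tissue, in the clearing of the lysate and in the input to the library, and a difference between fractions cannot be told apart from these steps.

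Heavy polysomal RNA resembled total RNA closely in its ranking of loci, but the heavy polysomal mean of most members lay outside the range of the total libraries. Over the 9340 members, which share libraries and lengths on both axes, Spearman's rho between the 2 group means was 0.940. Against the single total libraries the heavy polysomal mean gave 0.927, 0.936 and 0.938, below the 0.980 to 0.984 between total libraries. The ratio had a median of -0.04, with 4444 members above 0 and 4896 below. Its quartiles were -0.41 and 0.36, its 5th and 95th percentiles were -0.89 and 0.91, and 69.7% of members lay within 1.5-fold.

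At the 2-fold threshold 315 members (3.37% of the 9340) were higher in heavy polysomal RNA and 299 (3.20%) were lower. These counts describe group means and have no test, and with the median ratio set to 0 they were 378 and 254. Some of these loci reached the minimum mean only through the group in which they were high. With at least 50 scaled counts in each group, 254 were higher and 254 lower. At 4-fold only XLOC_031027 and XLOC_015334 were higher, and 8 members were lower. Without total library 2, XLOC_031027 was under 4-fold, at 1.85, and XLOC_025360 and XLOC_025358 were past it, at 2.16 and 2.03. The extremes among low counts fell outside the rule for naming loci and were picked after their values were seen. XLOC_015334 had 19.1, 21.0 and 30.4 scaled counts in the total libraries and a heavy polysomal mean of 98.8. XLOC_000336 had the lowest ratio of all, -4.23, from 159, 166 and 46.1 scaled counts in the total libraries and a heavy polysomal mean of 5.67. XLOC_012347 followed at -3.62, from 132, 59.4 and 91.2 scaled counts against a heavy polysomal mean of 6.72. These were the only 2 members whose heavy polysomal mean was under 10, and no member had a total mean under 10.

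The spread of the ratio was larger than the spread between libraries of total RNA. The ratio had an SD of 0.558 over members. When each total library was set against the mean of the other 2, in the 9339 members counted in all 3, the SD was 0.253, 0.271 and 0.273, and 54, 70 and 53 loci were at least 2-fold apart. The heavy polysomal mean lay above all 3 total libraries in 3579 of these members and below all 3 in 3893. Some members would lie outside the 3 libraries without any difference between fractions, and that share was not computed. The loci past 2-fold were picked against the mean of the same 3 libraries, so lying outside all 3 was largely set by the pick. Each of the 315 higher loci exceeded all 3 total libraries, and 136 of them were 2-fold above each one. Of the 299 lower loci, 296 lay below all 3 and 140 were 2-fold below each one. The exceptions were XLOC_001400, XLOC_004782 and XLOC_014838, named after their values were seen, each of which had 1 total library below the heavy polysomal mean.

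**Figure D1:**
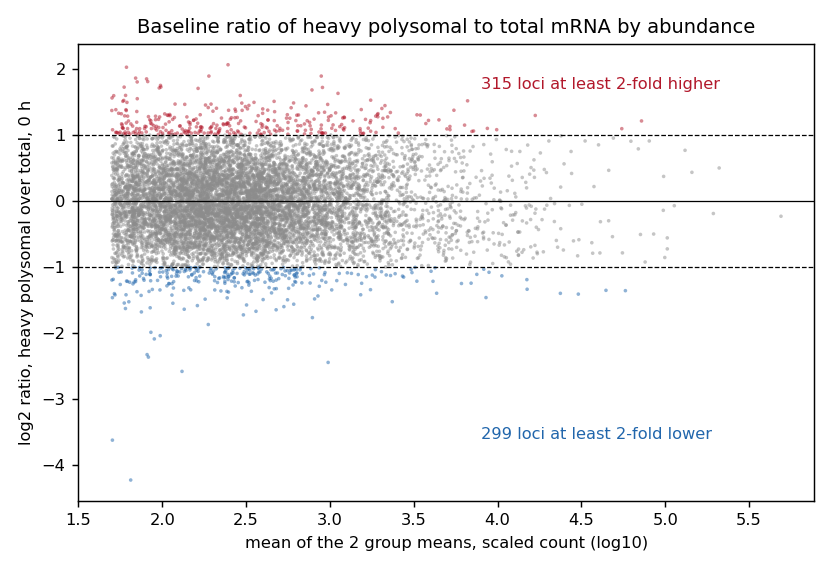
Log2 ratio of heavy polysomal to total RNA at 0 h (vertical axis) against the mean of the 2 group means in scaled counts on a log10 scale, 1 point per member. Red points are the 315 loci at least 2-fold higher, blue points the 299 at least 2-fold lower, and both lie across the range of counts.

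The most abundant loci of the heavy polysomes stood within 2-fold of total RNA. XLOC_026074 led with a heavy polysomal mean of 450761 scaled counts. The total libraries gave it 882047, 0 and 705975, and the 0 was a locus that the authors' program skipped because it held too many reads. Its ratio was -0.23 with that 0 in the mean and -0.82 against the 2 libraries that counted it. It was the only member skipped in a total 0 h library. At 4 h it stood at 0 in every heavy polysomal library and in total libraries 1 and 2. Whether a heavy polysomal read group also skipped this locus at 0 h was not checked, so neither ratio is certain.

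The next in rank differed among themselves. XLOC_024669 had 189626, 147174 and 184255 scaled counts in the total libraries and a heavy polysomal mean of 245639, a ratio of 0.50. XLOC_036465 had 195461, 218677 and 204802 against 180837, a ratio of -0.19. XLOC_031620 had 118085, 114316 and 135633 against 165725, a ratio of 0.43. The heavy polysomal mean was thus outside the total libraries in each of these 3 loci, above them in 2 and below them in XLOC_036465. XLOC_035129 and XLOC_015471 had higher ratios, 0.77 and 0.91, also above all of their total libraries. XLOC_034655 had 0.37, from uneven total libraries of 60888, 87897 and 106955 against 110324, so total library 3 was near its heavy polysomal mean. XLOC_032700 was the exception, at -0.07, with its mean of 110386 inside the range of 82001 to 137257 of the total libraries. The 10 largest loci of each library took 17.1% of the members' scaled counts in the heavy polysomal mean, and 19.1%, 13.5% and 18.2% in the total libraries, of which the 13.5% belongs to the library that lacks XLOC_026074.

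Among members with a mean of both groups of at least 200 scaled counts, 6 loci had the highest ratios. XLOC_031027 had 106, 63.7 and 114 scaled counts in the total libraries and a heavy polysomal mean of 399, a ratio of 2.06. XLOC_002567 had 547, 497 and 591 against 1689, a ratio of 1.63. XLOC_023790 had 153, 144 and 136 against 439, a ratio of 1.60. In each of them every total library lay well under the heavy polysomal mean. The remaining 3 carried consecutive identifiers and had like values, so they may not be separate observations. XLOC_025360 had 309, 506 and 313 scaled counts against 1399, a ratio of 1.89. XLOC_025358 had 335, 582 and 342 against 1385, a ratio of 1.72, and XLOC_025359 stood at 1.68. In all 3 total library 2 was the highest, and whether these loci share reads was not tested.

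The 6 lowest ratios at the same minimum were found in short and long loci alike. XLOC_016848, in length decile 9, had 2108, 1062 and 1778 scaled counts in the total libraries and a heavy polysomal mean of 302, a ratio of -2.45. XLOC_003729, in the shortest decile, had 1077, 1139 and 1432 against 356, a ratio of -1.77. XLOC_023624, also in the shortest decile, had 475, 583 and 347 against 141, a ratio of -1.73. The heavy polysomal mean lay below every total library in these loci. XLOC_015472 stood at -1.67, XLOC_008718 at -1.65 and XLOC_005465 at -1.60, with their heavy polysomal means again below all 3 total libraries.

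**Figure D2:**
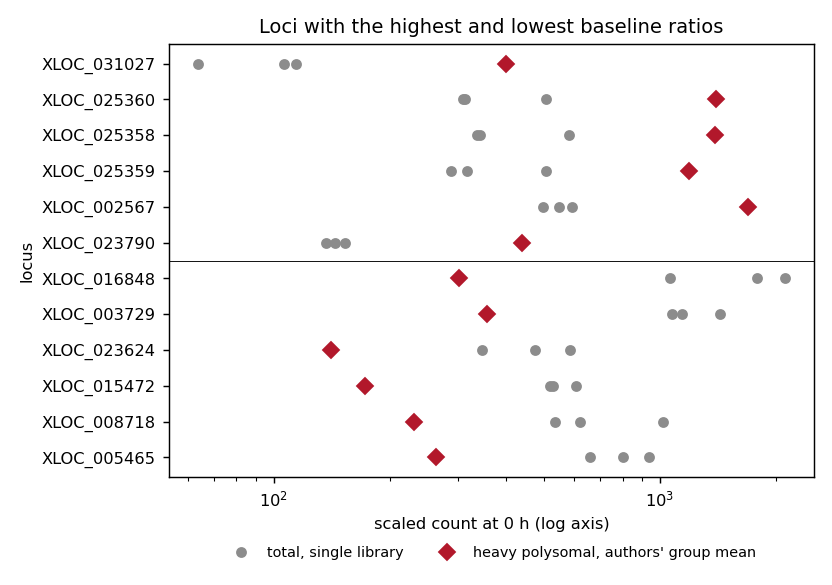
Scaled counts at 0 h on a log axis for the 6 loci with the highest ratios (above the line) and the 6 with the lowest (below it) among members with a mean of at least 200. Grey points are the 3 total libraries and red diamonds the authors' heavy polysomal mean, which lies outside the grey points in all 12 loci.

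Of length and abundance, length went further with the ratio. Relative length was the quotient of scaled count and FPKM (the authors' expression value per transcript length), which is proportional to the authors' effective transcript length, with the median member set to 1. The members were divided by length into 10 deciles of 934 loci each. From the shortest to the longest decile the median ratio went 0.44, 0.40, 0.24, 0.12, 0.01, -0.09, -0.14, -0.23, -0.30 and -0.48. In twentieths the shortest loci had only 0.34, so the ratio did not keep rising toward the shortest end. Very small lengths were found in 70 members, under 0.1 of the median member. Without them the shortest decile had 0.48, a check added after seeing the data. The ratio was above 0 in 72.5% of the shortest decile and in 13.6% of the longest. Spearman's rho between ratio and length was -0.464 over the 9340 members, which share the library and the length estimate, and against the single total libraries it was -0.510, -0.460 and -0.364.

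The higher loci were most frequent in the shortest decile and the lower loci in the longest, but lower loci were also found among short ones. The shortest decile held 142 of the 315 higher loci (45.1%) and 32 of the 299 lower ones (10.7%). Those 32 were 3.43% of the decile, close to the 3.20% of all members that were lower. The longest decile held 2 of the higher loci (0.635%; XLOC_003542 and XLOC_028974, named after their values were seen) and 82 of the lower ones (27.4%). Median relative length was 0.395 in the higher loci and 1.67 in the lower ones. The longest 3 deciles held 21 higher loci and the shortest 3 held 57 lower loci. Higher loci were 0.86%, 1.18% and 0.21% of length deciles 8, 9 and 10, each below the 3.37% of all members. Lower loci were 3.43%, 1.61% and 1.07% of length deciles 1, 2 and 3, against 3.20% of all members. The shortest decile took 18.1% of the members' scaled counts in the heavy polysomal mean, against 11.1%, 12.9% and 12.5% in the total libraries, and the longest decile took 3.67% against 5.98%, 5.73% and 4.91%. Without the 9 members skipped in any library used, the shortest decile took 18.9% against 12.2%, 12.9% and 13.3%, and the longest 3.83% against 6.51%, 5.71% and 5.24%.

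Total libraries also differed among themselves along length, by less. The median ratio of the shortest decile minus that of the longest was 0.739 to 1.07 for the heavy polysomal mean over each total library. Between 2 total libraries at 0 h the same difference had a size of 0.140 to 0.359. Between 2 heavy polysomal libraries at 4 h, from other mice, it had a size of 0.130 to 0.403. Total library 3 was the highest in short loci and the lowest in long ones, library 1 the reverse, and the heavy polysomal mean differed from both in the same direction.

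**Figure D3:**
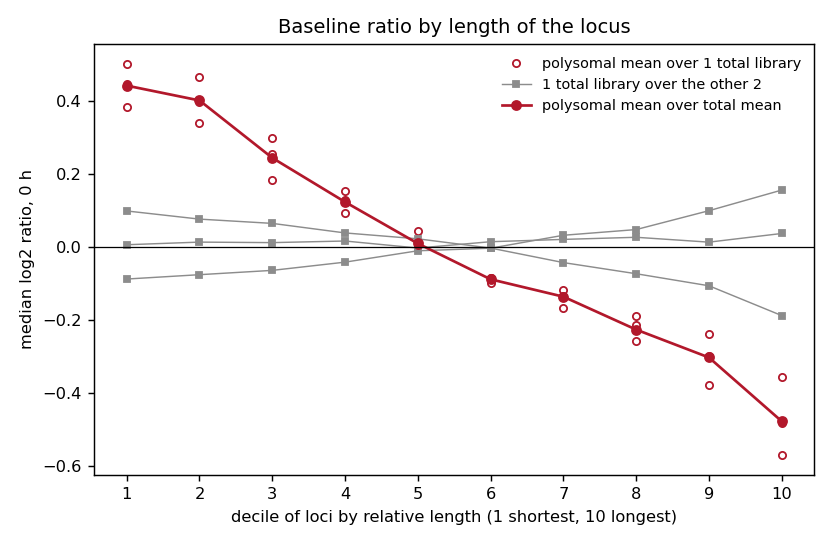
Median log2 ratio at 0 h (vertical axis) in deciles of loci by relative length, from shortest (1) to longest (10). The red line is the heavy polysomal mean over the total mean and runs from 0.44 to -0.48, open circles use 1 total library at a time, and grey lines set each total library against the other 2.

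Single loci at both ends departed from their decile. In the shortest decile, XLOC_019770 had 3328, 3547 and 3411 scaled counts in the total libraries and a heavy polysomal mean of 9817, a ratio of 1.52, and XLOC_030187 had 182, 187 and 183 against 521, a ratio of 1.49. XLOC_003080 of the same decile went the other way, with 1178, 1136 and 1406 against 456, a ratio of -1.44. Its heavy polysomal mean lay below every total library. In the longest decile the highest ratios at a mean of at least 200 stayed under 2-fold in the group means, at 0.91 in XLOC_032329, 0.89 in XLOC_034385 and 0.89 in XLOC_014919. The last of these had 146, 126 and 384 scaled counts in the total libraries against a heavy polysomal mean of 405, so total library 3 was near that mean, and without that library its ratio was 1.57, past 2-fold. Its lowest, after XLOC_005465, were XLOC_016283, with 935, 799 and 743 against 292 and a ratio of -1.50, and XLOC_008405, with 730, 519 and 521 against 209 and a ratio of -1.49.

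Over all members, abundance went with the ratio mainly where length did, but some length deciles departed from this. Level was taken per length, as the mean of both groups divided by relative length. The median ratio was -0.25 in the least abundant decile and 0.20 in the most abundant decile, and Spearman's rho between ratio and level was 0.221 over members. These medians depended on the settings. The least abundant decile had -0.04 at a minimum mean of 10 and -0.40 at 200, and the 2 end deciles had -0.16 and 0.12 with the level taken from 4 h, and 0.01 and -0.07, a reversal, with a level not divided by length. Level and length were themselves related (rho -0.594 over members, in part because level is divided by length), and with the mean count not divided by length the rho of the ratio was -0.01. After the median of its length decile was subtracted, the least abundant decile stood at 0.08 and the most abundant at -0.06. The last value pools length deciles that differed. The most abundant loci had a median above that of their whole length decile in deciles 1 and 2 (0.47 against 0.44 in decile 1). In length deciles 3 to 7 their median was below it (-0.31 against 0.01 in decile 5). Length deciles held 20.8% of the variance of the ratio, level deciles 4.72% and the grid of both 22.4%.

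Along length, the median ratio of the most abundant decile passed from above 0 to below it. In the most abundant decile, the median ratio was 0.47 in length decile 1 (347 loci), 0.08 in decile 3 (131 loci), -0.31 in decile 5 (79 loci) and -0.60 in decile 7 (29 loci). A level per length also places loci of modest count in the most abundant decile where the effective length is very small. Of the 347 loci, 61 had a relative length under 0.1, 9 had a mean count below the 273 of the median member, and the cell's median was 0.58 without the 61, a check added after seeing the data. In the longest decile the median went from -0.43 among the least abundant (345 loci) to -0.59 in level decile 7 (30 loci). Long abundant loci thus had the lowest medians among cells of at least 20 loci, and the highest were in short loci.

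**Figure D4:**
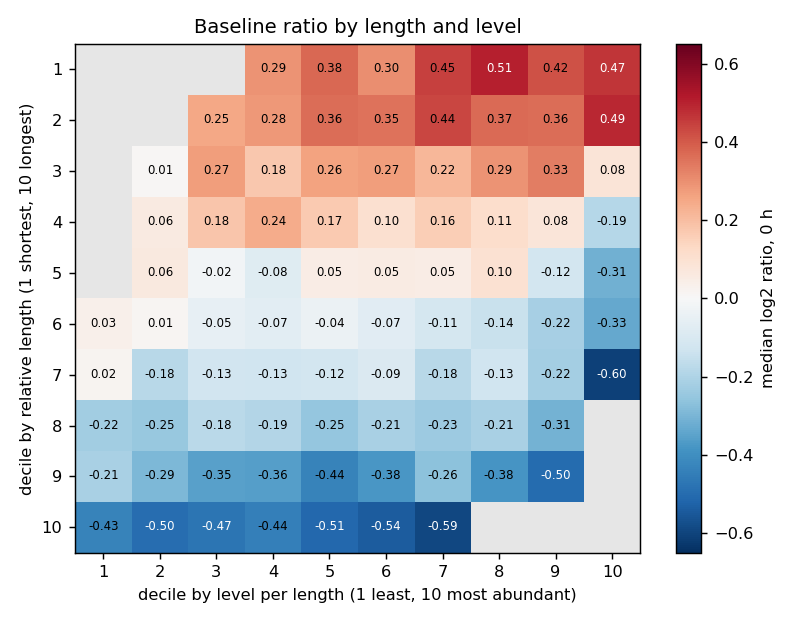
Median log2 ratio at 0 h in the grid of length deciles (rows, shortest at the top) and level deciles (columns, most abundant at the right), for cells with at least 20 loci. Red cells have the heavy polysomal mean above the total mean and blue cells below it, and in every column the bottom cell shown has a lower median than the top one.

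Most of the spread was left within cells of the grid. Around the median of its cell the ratio had an SD of 0.494, with 175 members at least 2-fold above and 226 at least 2-fold below. Of the higher loci 112 were also past 2-fold from their cell, and of the lower loci 113. Among members with a mean of at least 200, the furthest above were XLOC_031027 (2.25 above its cell), XLOC_023810 (1.66) and XLOC_014389 (1.55). XLOC_023810 rested on uneven libraries, with 314, 584 and 230 scaled counts of total RNA against 876 and a ratio of 1.22 that was 0.96 without total library 3, and XLOC_014389 on even ones, with 378, 371 and 412 against 1053. The furthest below were XLOC_003729 (-2.23), XLOC_016848 (-2.18) and XLOC_023624 (-2.14). The member nearest to the minimum mean was XLOC_003337, with group means of 43.2 in total and 56.8 in heavy polysomal RNA and a ratio of 0.39. Just outside it was XLOC_031316, with 47.7 and 52.3 and a ratio of 0.13.

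The same ratio could be tested at 4 h, where 3 total and 3 heavy polysomal libraries could be told apart. These came from other mice, which had received Tm and were culled at noon, so treatment and time of day cannot be told apart. Each library held between 11636552 and 13726378 counted fragments. The labels do not say which libraries share a liver. The main test did not pair them, and its p-values measure the spread between these libraries. In edgeR's quasi-likelihood test over 12577 loci, 169 (1.34%) were called higher in heavy polysomal RNA and 401 (3.19%) lower, where a call needed a 2-fold change and an adjusted p (Benjamini-Hochberg) under 0.05. The split depended on scaling, since upper-quartile normalization in place of TMM shifted the log2 fold changes by a median of 0.08 and gave 232 higher and 314 lower. Among the 9328 members tested the calls were 69 higher (0.740%) and 260 lower (2.79%).

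Of the loci past 2-fold at 0 h, a larger share was called in the same direction at 4 h than of all members. Of the 314 higher loci tested, 48 were called higher (15.3%, against 0.740% of members) and 0 lower. Of the 298 lower loci tested, 95 were called lower (31.9%, against 2.79% of members) and 0 higher. With upper-quartile normalization the 48 and 95 became 67 and 72. Their median log2 fold changes at 4 h were 0.67 and -0.82, against -0.01 over the members tested. The fold change had the direction of the 0 h ratio in 300 of the 314 and in 295 of the 298. How often the direction agreed over all members was not counted. The 48 made up 69.6% of the higher calls among members, and the 95 made up 36.5% of the lower ones. Without heavy polysomal library 3 at 4 h the 48 dropped to 31.

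Among the named loci with high ratios, the calls at 4 h were mixed. XLOC_025360 had 255, 243 and 319 scaled counts in the total libraries at 4 h and 778, 681 and 1043 in the heavy polysomal ones, with no overlap. Its log2 fold change was 1.61 ± 0.18 (SE, n = 3 against 3, edgeR adjusted p = 1.91e-04). XLOC_031027 had 35.1, 30.3 and 49.2 against 158, 96.9 and 130, and a log2 fold change of 1.75 (edgeR adjusted p = 6.74e-04). XLOC_002567 and XLOC_019770, both of the shortest decile, passed the adjusted p but not the 2-fold threshold, at 0.85 and 0.77. XLOC_014389 had 360, 346 and 344 against 304, 410 and 532, with overlapping groups and a log2 fold change of 0.24 (edgeR adjusted p = 0.325).

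The named loci with low ratios divided likewise. XLOC_003080 had 1036, 1159 and 1325 scaled counts in the total libraries at 4 h and 192, 230 and 183 in the heavy polysomal ones, a log2 fold change of -2.55 ± 0.14 (SE, n = 3 against 3, edgeR adjusted p = 9.82e-06). XLOC_003729 was at -2.15 and XLOC_016848 at -2.01, both called lower and with no overlap between the fractions. XLOC_015472 had 1146, 928 and 1108 against 736, 440 and 832, and its log2 fold change of -0.66 was under 2-fold. XLOC_008718 had 527, 444 and 476 against 479, 452 and 389, so that a ratio of -1.65 at 0 h stood beside a log2 fold change of -0.14 at 4 h (edgeR adjusted p = 0.430).

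**Figure D5:**
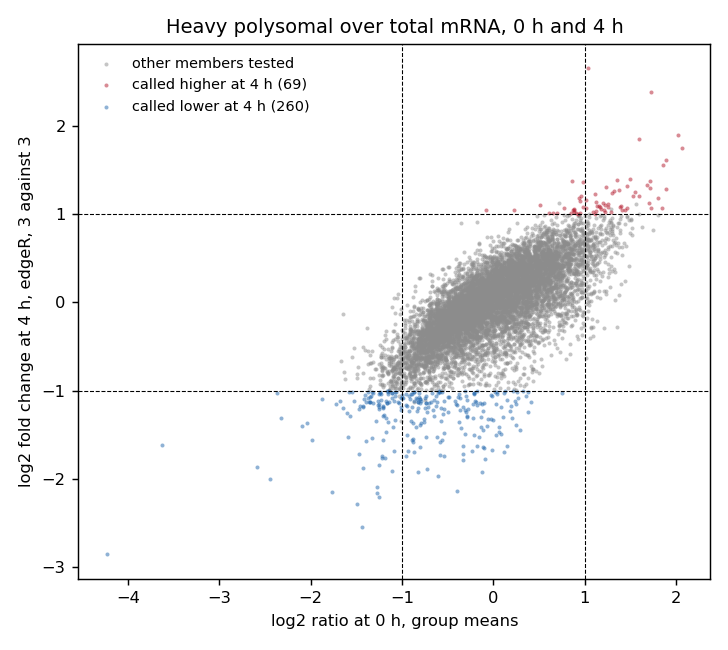
Log2 fold change of heavy polysomal over total RNA at 4 h (edgeR, 3 against 3 libraries) against the log2 ratio of group means at 0 h, 1 point per member tested. Red points are the 69 members called higher at 4 h and blue points the 260 called lower, and dashed lines mark 2-fold.

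The ratio itself was narrower in the injected mice, which were other animals than the 0 h controls, and the course along length was flatter. In the group means the SD over members was 0.558, 0.406 and 0.457 at 0, 2 and 4 h, the last over the 9331 members with no library skipped. The higher loci had median ratios of 1.15, 0.55 and 0.66 at the 3 times, and the lower loci -1.14, -0.63 and -0.82. Past 2-fold at all 3 times were 32 of the higher and 42 of the lower loci. Both the members and the higher and lower loci were picked on 0 h values. The smaller SDs and medians at other times are therefore a description. Across members, which share lengths at every time, Spearman's rho of the 0 h ratio was 0.557 with the 2 h ratio and 0.726 with the 4 h ratio.

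The median ratio of the shortest decile was 0.44 in the 0 h controls, -0.13 in the 2 h mice and -0.11 in the 4 h mice, and the longest decile had -0.48, -0.17 and -0.23. Length decile 2 was positive throughout, at 0.40, 0.09 and 0.17. Spearman's rho between ratio and length was -0.464, -0.117 and -0.192 at the 3 times. At 4 h the shortest decile took 11.5% ± 1.25 of the members' scaled counts in heavy polysomal libraries and 11.2% ± 0.221 in total libraries (SD, n = 3 each), with overlapping groups and a two-sided exact permutation p of 0.9. The difference was 0.278 percentage points and had no stable sign. It ranged from -0.422 without heavy polysomal library 3 to 0.787 without heavy polysomal library 1, was -0.0026 without skipped loci, and was -0.71, -0.34 and 1.88 in the 3 same-numbered pairs. The longest decile took 4.60% ± 0.347 and 5.83% ± 0.441 (SD, n = 3 each), and the groups did not overlap, with an exact permutation p of 0.1, the smallest that 3 against 3 allow. In the 3 same-numbered pairs the longest decile's share was lower in heavy polysomal RNA each time (heavy polysomal minus total, -1.28, -1.61 and -0.81 percentage points), and a paired exact permutation test gave p = 0.25, the smallest that 3 pairs allow. The difference between times was not tested, because the heavy polysomal libraries at 0 h and 2 h entered only as means.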

How the data were processed

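The authors aligned single-end, strand-specific reads to GRCm38 with TopHat2 2.0.13 and ran Cuffdiff of Cufflinks 2.2.1, with fragment bias and multi-read correction. The deposited tables held raw fragment counts, scaled counts (a signal, raw fragments over a library size factor, and group means of it) and FPKM per locus. Columns of the 10 h libraries, 72 of 81 read groups and 21 of 27 group mean columns were not used here. Ratios used a pseudocount of 1 and a minimum mean of 50. Relative length came from the scaled count and the deposited FPKM of the total 0 h libraries, as the median of 3. At 4 h, edgeR 4.0.16 (R 4.3.3; TMM, filterByExpr, quasi-likelihood) tested the deposited fragment counts, after the script was tested on simulated data. DESeq2 1.42.0 was an alternative.

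Same-numbered total and heavy polysomal libraries at 4 h deviated together (correlations of 0.293 to 0.343, others -0.231 to -0.0978). The numbers were therefore taken as pairs in the replicate block and the paired tests, but not in the main edgeR test. Shares at 4 h were compared by exact permutation tests over the libraries, unpaired and paired.

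Named loci were, at a mean of at least 200, the 6 highest and 6 lowest ratios, the 3 highest and lowest in the end deciles of length and the 3 furthest each way from the grid, with the 8 highest heavy polysomal means and the loci on either side of the minimum mean. The members, lists and tests were chosen with earlier results of these data known.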

Additional observations from a re-analysis of the deposited data

Results flagged for a closer look

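The median ratio of the shortest decile by length had opposite signs at 0 h and 4 h. It was 0.44 at 0 h and lay between 0.38 and 0.50 against each total library, whereas at 4 h it was -0.11 in the group means. The 3 same-numbered pairs of libraries at 4 h gave -0.23, -0.13 and -0.01, the last close to no difference. Upper-quartile normalization shifted the log2 fold changes at 4 h by a median of 0.08, and the decile median was not recomputed with it. Over the 9 possible pairs at 4 h it ranged from -0.28 to 0.05. The difference between the times was not tested, since the heavy polysomal libraries at 0 h entered only as a mean. Between 2 heavy polysomal libraries at 4 h, the median of the shortest decile differed by as much as -0.28.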

How the results depend on the processing

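No library of heavy polysomal RNA at 0 h was used singly, so the spread of that mean is unknown, and relative lengths rest on the authors' bias-corrected FPKM. In 116 members these lengths differed over 2-fold among the total libraries. With a minimum mean of 10, 519 loci were higher and 479 lower at 0 h, and the medians of the shortest and least abundant deciles were 0.32 and -0.04. With a minimum of 200 these values were 174, 180, 0.50 and -0.40. At 1.5-fold 1356 loci were higher and 1478 lower, and at 4-fold 2 and 8. In twentieths, the shortest loci had 0.34 and the most abundant 0.13. With the level taken from 4 h, the least and most abundant deciles had -0.16 and 0.12, and with a level not divided by length 0.01 and -0.07, the reverse of the result per length.

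At 4 h, 273 loci were called higher when all loci with at least 1 count were tested. With no minimum fold, 1457 were called higher and 1854 lower, of which 196 and 258 were past 2-fold in the same direction at 0 h. With 1.5-fold at 0 h, 161 of the lower loci were called lower at 4 h. DESeq2 called 141 higher and 348 lower, and upper-quartile normalization 232 and 314. With a replicate block that paired the libraries, 187 and 428 were called, and the block moved no count by over 1.5 times. Over the same pairs the shares at 4 h gave exact paired p-values of 1.0 (shortest decile) and 0.25 (longest), a test added after seeing the data. Leaving out each 4 h library in turn gave 31 to 69 loci higher at both times, and a difference of -0.422 to 0.787 in the share of the shortest decile. That difference was -0.0026 without skipped loci, an alternative chosen after seeing the data. The cause was not tested. Leaving out each total 0 h library gave 275 to 388 higher and 258 to 352 lower loci. Of the 19 named loci past 2-fold, XLOC_023810 came under it, at 0.96 without total library 3, and XLOC_014919, under 2-fold in the group means, went past it at 1.57 without the same library.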
